A study of Mus musculus with 12 samples.

Results

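The genes for collagen chains, laminin chains and integrin subunits were examined in mpkCCD cells, a mouse cell line of the renal cortical collecting duct. The members were chosen by gene symbol alone, and no expression level entered the choice. The rule gave 82 of the 52015 genes measured, namely 44 collagen chains, 11 laminin chains, 18 integrin α subunits and 9 integrin β subunits. Itgb1bp1, Itgb1bp2, Itgb3bp and Itgbl1, which begin with the same letters but encode no integrin subunit, were left out. RNA-seq was done on 12 libraries in 4 groups to ask how loss of Nfat5, the transcription factor of the hypertonic response, and medium osmolality alter gene expression. Scr_300 and Scr_600 cells, with 2 libraries each, carried a scramble guide RNA without a target and were kept for 5 days at 300 or 600 mosmol/kg. Nfat5-KO_300 and Nfat5-KO_600 cells, with 4 libraries each, came from the CRISPR/Cas9 clones N1 and N3 with deleted Nfat5, each clone giving 2 libraries at each osmolality. The 600 mosmol/kg medium contained an additional 100 mM NaCl and 100 mM urea, and all groups shared the same basal medium with serum. Each knockout line is 1 clone, and the deposited values pool both clones, so that an effect of Nfat5 and a property of a clone cannot be told apart.

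Collagens, laminins and integrins are the structural core of cell adhesion to the basement membrane, the sheet of matrix under every renal tubule. Laminins are trimers of an α, a β and a γ chain, and collagen IV is a trimer drawn from a family of α chains; both form networks, which integrins bind from the cell side as α/β pairs. In the kidney, laminin with the α5 chain and collagen IV make up the mature tubular and glomerular basement membranes, and integrin α3β1 is a main laminin receptor of the collecting duct epithelium.

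The unit of the deposited values is FPKM, fragments scaled to gene length and to the mapped fragments of the library, which sets genes of different length on 1 scale. There was 1 value per gene and group, the read depth is unknown, and no difference given here has a replicate check, an error or a p-value. Differences are log2 ratios of FPKM + 0.1, a scale that understates differences of low genes, and they were counted where the higher of the 2 groups reached 0.5 FPKM. A fold is the ratio of the FPKM themselves and is given where both groups had at least 0.1 FPKM. Summed FPKM differed between the groups, from 212247 in Nfat5-KO_600 to 253756 in Scr_300. Setting all groups to the same sum would move the median log2 ratio over all genes up by 0.01 for Nfat5-KO_300 against Scr_300, by 0.13 for Nfat5-KO_600 against Scr_600, by 0.13 for Scr_600 against Scr_300 and by 0.24 for Nfat5-KO_600 against Nfat5-KO_300. Nfat5 itself was at 5.61 FPKM in Scr_300, 7.93 in Scr_600, 3.47 in Nfat5-KO_300 and 6.88 in Nfat5-KO_600, and its transcript was thus not lost in the knockout groups. All 6 epithelial markers were above 0.5 FPKM, with sums of 1711 FPKM in Scr_300, 1347 in Scr_600, 1607 in Nfat5-KO_300 and 1044 in Nfat5-KO_600. In Nfat5-KO cells all 6 were lower at 600 than at 300 mosmol/kg (median log2 ratio -0.54), and Epcam alone changed sign with the scaling. In Scr cells 5 of 6 were lower at 600 mosmol/kg (median -0.30), and Cldn4 was higher. Of the principal cell markers only 5 of 12 reached 0.5 FPKM, and Aqp2, the water channel that defines principal cells, was listed at 0 in Scr_300 and at 0.0171 to 0.245 FPKM in the other groups. The summed principal cell markers were 50.7 FPKM in Scr_300, 34.1 in Scr_600, 69.6 in Nfat5-KO_300 and 100.3 in Nfat5-KO_600, and the part of either marker list in the differences below was not tested. Of 9 fibroblast markers none reached 0.5 FPKM, 2 were at 0 in all groups and their sum was 0.0166 to 0.0406 FPKM. None of 4 endothelial, 5 leukocyte or 4 intercalated cell markers reached 0.5 FPKM. Their sums were 0.0406 to 0.193, 0.0290 to 0.0485 and 0.0611 to 0.535 FPKM, the last highest in Nfat5-KO_600. In such bulk RNA, fewer cells of a type and less RNA per cell cannot be told apart.

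Of the 82 members, 31 (37.8%) reached 0.5 FPKM in at least 1 group, compared with 25.8% of all genes. These were 8 of 44 collagens, 7 of 11 laminins, 9 of 18 integrin α and 7 of 9 integrin β genes. The 25.8% was taken over all 52015 genes, of which 22400 were at 0 in all groups. That set also holds antisense and microRNA genes, so that the 2 shares do not rest on like genes. Another 9 members lay between 0.1 and 0.5 FPKM at their highest, and 42 stayed below 0.1 FPKM in all groups, of which Col1a2 was listed at 0 throughout. Each family was carried by few genes. Integrin β1 (Itgb1) made up 60.7% to 73.1% of the summed FPKM of the integrin β genes, integrin α3 (Itga3) 70.2% to 79.2% of the integrin α genes and Col18a1 67.6% to 71.0% of the collagens, whereas among the laminins Lama5, Lamb1 and Lamb3 were close to each other. The levels plotted by family show this order and, at the low end of each family, the widest distances between groups.

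**Figure D1:**
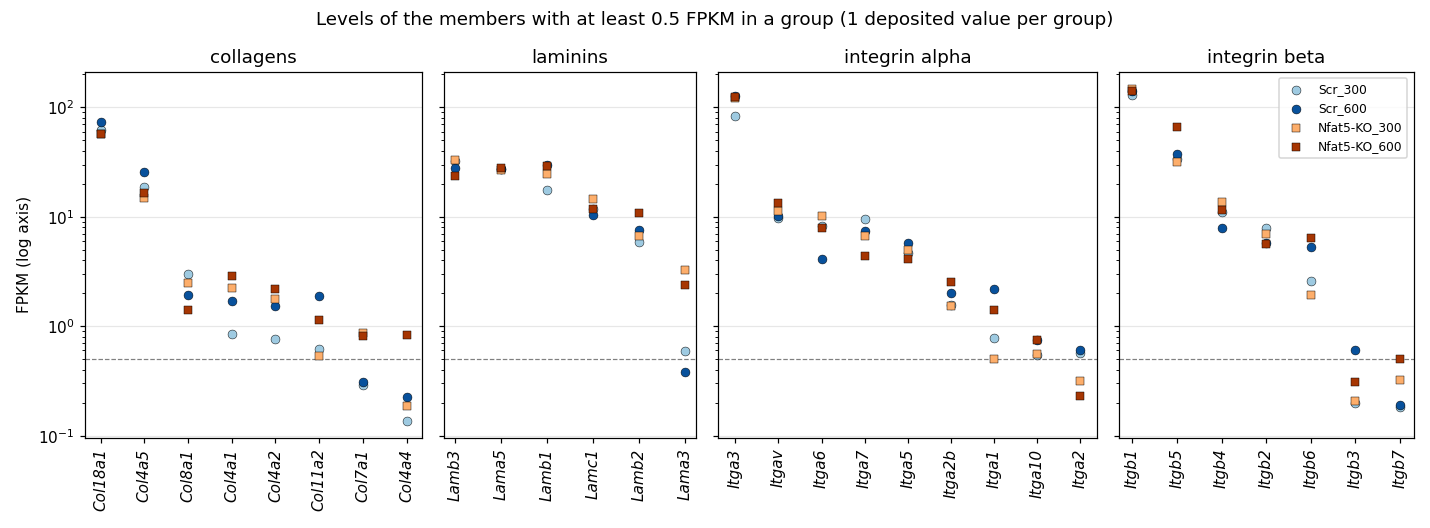
FPKM (log axis) of the members with at least 0.5 FPKM in a group, except 1 not reported here, by family and in order of their mean. Circles are Scr and squares Nfat5-KO cells, light symbols 300 and dark symbols 600 mosmol/kg, each symbol is the 1 deposited value of a group, and the dashed line marks 0.5 FPKM. Itgb1 and Itga3 lie near or above 100 FPKM, and both Lama3 squares (3.24 and 2.38) lie above both Lama3 circles (0.591 and 0.384).

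The comparison of the genotypes at 300 mosmol/kg asks what loss of Nfat5 does under isotonic conditions. In Nfat5-KO_300 compared with Scr_300, 4 of 28 members counted were at least 2-fold higher, namely the laminin chain Lama3 and the collagen chains Col4a1, Col4a2 and Col7a1, whereas 1.73% of 12704 genes were at least 2-fold higher. Col7a1 was below 0.5 FPKM in Scr_300 and passed the filter only through Nfat5-KO_300. No member was at least 2-fold lower, against 2.44% of all genes. The median log2 ratio was 0.07 over the members and -0.0015 over all genes. At 600 mosmol/kg, in Nfat5-KO_600 compared with Scr_600, 4 of 31 members were at least 2-fold higher (Lama3, Col7a1, Col4a4 and Itgb7; 3.76% of 13063 genes) and 1 was at least 2-fold lower (Itga2; 3.68% of all genes). All 4 higher members were below 0.5 FPKM in Scr_600 and passed the filter only through Nfat5-KO_600, and Itga2 passed only through Scr_600. These counts thus depend on the filter, which was the same for all genes. The median was 0.03 over the members and -0.02 over all genes. The sign of the member median turned to -0.04 when groups were scaled by median-of-ratios factors.

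The comparison of 600 with 300 mosmol/kg asks how hypertonicity affects the genes in each genotype. In Scr_600 compared with Scr_300, 3 of 28 members were at least 2-fold higher, namely Itga1, Itgb3 and Col11a2 (4.81% of 12929 genes), and none was at least 2-fold lower (2.86% of all genes). Itgb3 was below 0.5 FPKM in Scr_300 and passed the filter only through Scr_600. The median was 0.20 over the members and -0.04 over all genes, with 18 members above 0 and 10 below. In Nfat5-KO_600 compared with Nfat5-KO_300, 4 of 29 members were at least 2-fold higher, namely Itgb6, Itga1, Itgb5 and Col4a4 (6.25% of 12982 genes), and none was at least 2-fold lower (4.11% of all genes). Col4a4 was below 0.5 FPKM in Nfat5-KO_300 and passed the filter only through Nfat5-KO_600. Here the median was 0.06 over the members and -0.04 over all genes. On the scale of FPKM + 0.1, Itga1 was thus the one member at least 2-fold higher in both genotypes. Just outside the threshold lay Itgb6 in Scr cells (0.99) and Col11a2 in Nfat5-KO cells (0.95), and just inside it Itgb7 (1.06) at 600 mosmol/kg and Itgb5 (1.08) in Nfat5-KO cells.

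**Figure D2:**
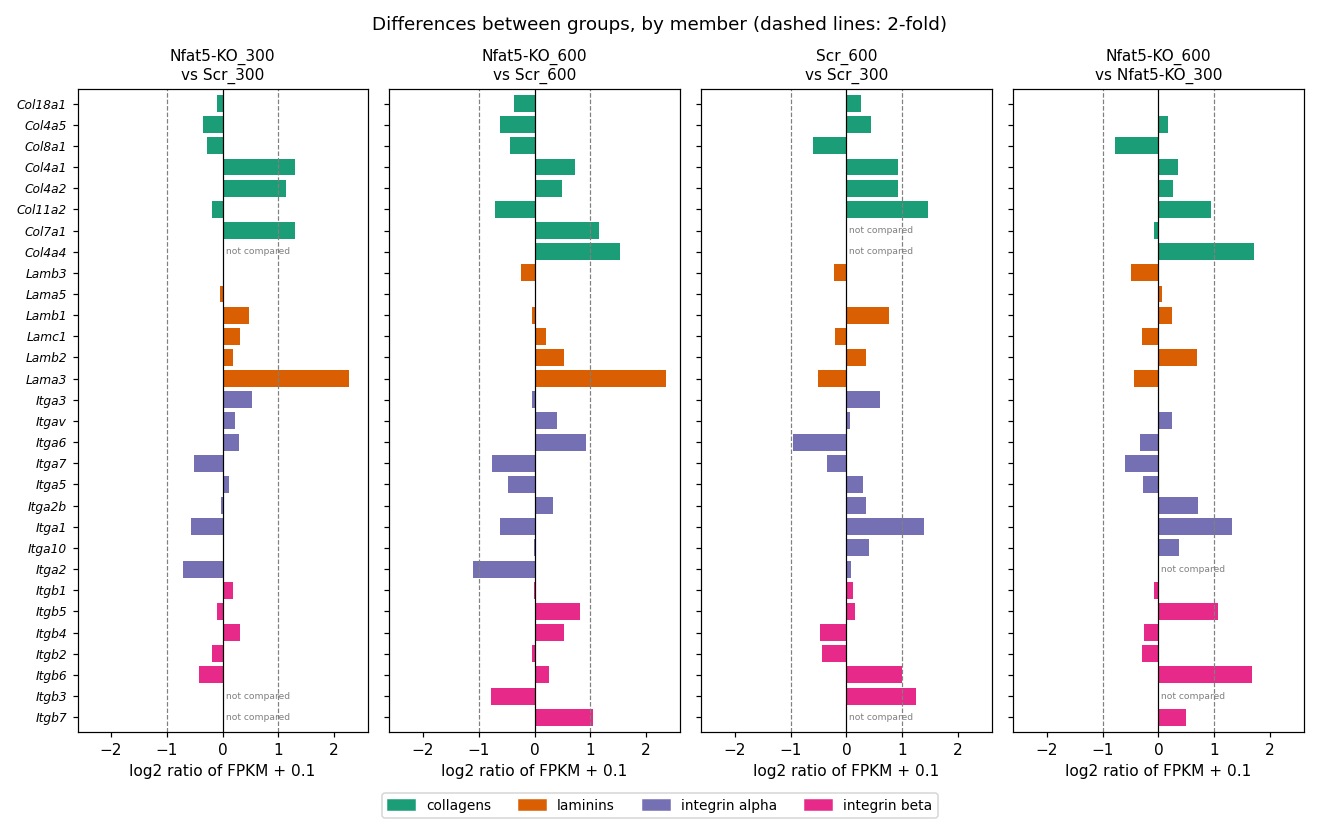
Log2 ratio of FPKM + 0.1 for the members of the plot of levels (rows, grouped and coloured by family) in the 4 comparisons (panels), with dashed lines at 2-fold. Bars are single differences between 1 value per group and have no error, and "not compared" marks members below 0.5 FPKM in both groups. Lama3 has the longest bars in both knockout panels (2.27 and 2.36), and Itga1 passes 2-fold in both hypertonicity panels (1.38 and 1.32).

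Among the laminin chains, the knockout groups differed from Scr mainly in Lama3, the α chain that joins Lamb3 in the laminin of epithelial anchoring contacts (chr18:12333819-12583013 of GRCm38, plus strand). Lama3 was at 0.591 FPKM in Scr_300, 0.384 in Scr_600, 3.24 in Nfat5-KO_300 and 2.38 in Nfat5-KO_600. Both knockout values lay above both Scr values, 5.49-fold higher at 300 and 6.20-fold higher at 600 mosmol/kg (log2 ratios 2.27 and 2.36). Hypertonicity went the other way, with log2 ratios of -0.51 in Scr and -0.43 in Nfat5-KO cells. The antisense gene Gm29200 shares 1.83% of the exonic bases of Lama3 and was at 0 to 0.0853 FPKM, and without strand the reads of this stretch cannot be told apart.

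The β partner of Lama3 was far more abundant. Lamb3 was at 32.5, 28.0, 33.2 and 23.7 FPKM in Scr_300, Scr_600, Nfat5-KO_300 and Nfat5-KO_600. Lamb3 was lower at 600 than at 300 mosmol/kg in both genotypes. FPKM are scaled to the length of the gene, and the chains were set against each other on that scale. Whether that length fits the transcripts expressed was not tested, here or for the chain ratios below. Lamb3 exceeded Lama3 by 55.0-fold in Scr_300, 72.9-fold in Scr_600, 10.2-fold in Nfat5-KO_300 and 9.96-fold in Nfat5-KO_600, so that Lama3 was the scarcer of both chains in all groups.

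Lama5, the α chain of the mature tubular basement membrane, was the most even laminin, at 27.5, 27.2, 26.6 and 27.8 FPKM in Scr_300, Scr_600, Nfat5-KO_300 and Nfat5-KO_600. Its β partners did not stay as level. Lamb1 was at 17.5, 29.8, 24.5 and 28.9 FPKM, lowest in Scr_300, with log2 ratios for hypertonicity of 0.76 in Scr and 0.24 in Nfat5-KO cells. Lamb2, the alternative β chain of mature basement membranes, was at 5.90, 7.57, 6.70 and 10.9 FPKM, highest in Nfat5-KO_600, with log2 ratios of 0.35 and 0.70. The γ partner Lamc1 was at 11.8, 10.3, 14.6 and 11.9 FPKM, and was lower at 600 mosmol/kg in both genotypes (-0.20 and -0.30). Over the 7 laminins counted, 6 were above 0 in the knockout at 300 mosmol/kg (median 0.30) and 5 at 600 (median 0.21), compared with 49.8% and 47.8% of all genes. At 600 mosmol/kg the signs of Lama5 and Lamb1 were near 0 and changed with the scaling, so that the count of 5 depends on it. The medians for hypertonicity were -0.20 in Scr and -0.30 in Nfat5-KO cells. Summed over the α chains, laminin stood at 27.6 to 30.2 FPKM and over the β chains at 55.9 to 65.3.

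Of the collagen IV chains, Col4a1 and Col4a2, the 2 chains of the ubiquitous collagen IV trimer, were both higher in the knockout than in Scr and both higher at 600 than at 300 mosmol/kg. Col4a1 (chr8:11198423-11312826, minus strand) was at 0.844 FPKM in Scr_300, 1.68 in Scr_600, 2.23 in Nfat5-KO_300 and 2.85 in Nfat5-KO_600. Col4a2 (chr8:11312805-11449287, plus strand) was at 0.758, 1.52, 1.78 and 2.17 FPKM in the same order. The groups thus stood in the same order for both genes, with Scr_300 lowest and Nfat5-KO_600 highest. The knockout log2 ratios were 1.30 and 1.13 at 300 mosmol/kg but 0.73 and 0.48 at 600, and those for hypertonicity were 0.92 and 0.92 in Scr but 0.34 and 0.27 in Nfat5-KO cells. The genes lie head to head, overlap by 22 exonic bases on opposite strands, and had a Col4a1 to Col4a2 ratio of 1.11 to 1.32. Their levels are low, and with a pseudocount of 1 the knockout log2 ratios at 300 mosmol/kg were 0.81 and 0.66, under 2-fold.

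The dominant collagen IV chain was another one. Col4a5, the chain that in tubules and glomeruli pairs with Col4a3 and Col4a4 or with Col4a6 (chrX:141475385-141689234, plus strand), was at 18.9, 25.5, 14.7 and 16.6 FPKM in Scr_300, Scr_600, Nfat5-KO_300 and Nfat5-KO_600. It exceeded Col4a1 by 22.4-fold in Scr_300, 15.2-fold in Scr_600, 6.63-fold in Nfat5-KO_300 and 5.81-fold in Nfat5-KO_600. Unlike Col4a1, Col4a5 was lower in the knockout at both osmolalities, with log2 ratios of -0.35 and -0.62. In Scr cells it was higher at 600 mosmol/kg (0.43), and in Nfat5-KO cells the log2 ratio was 0.17. Col4a6, its neighbour on the opposite strand 1308 bases away, stayed at 0.0148 to 0.0576 FPKM.

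Beside collagen IV, the abundant collagen was Col18a1, the basement membrane collagen whose end fragment is endostatin (chr10:77052178-77166548, minus strand). It was at 61.6 FPKM in Scr_300, 73.8 in Scr_600, 57.2 in Nfat5-KO_300 and 57.1 in Nfat5-KO_600. Only Scr_600 stood out, and the log2 ratio for hypertonicity in Scr was 0.26, while that in the knockout was -0.0032, the latter becoming 0.24 when groups were set to the same sum. Col8a1, a short-chain network collagen, was at 2.99, 1.93, 2.47 and 1.40 FPKM. It was lower at 600 mosmol/kg in both genotypes (-0.61 and -0.78) and lower in the knockout at both osmolalities (-0.27 and -0.44). Col11a2, a chain of a cartilage fibril collagen, was at 0.624, 1.90, 0.537 and 1.13 FPKM. It was 3.04-fold higher at 600 mosmol/kg in Scr and 2.11-fold higher in Nfat5-KO cells. Col7a1, the anchoring fibril collagen that attaches to the laminin of Lama3 and Lamb3, was at 0.289, 0.309, 0.860 and 0.812 FPKM. Like Lama3 it was higher in both knockout groups, by 2.97-fold and 2.63-fold, and its hypertonicity log2 ratios were 0.07 in Scr and -0.07 in Nfat5-KO cells, the latter turning to 0.14 with the groups at the same sum. Without Col11a2, the fibrillar collagens Col1a1, Col1a2, Col2a1, Col3a1, Col5a1, Col5a2, Col5a3 and Col11a1 summed to 0.0712, 0.0921, 0.167 and 0.492 FPKM. Col11a2 alone exceeded this sum in every group and was highest in Scr_600, where the sum was highest in Nfat5-KO_600. Col24a1 and Col27a1, each below 0.1 FPKM, were also left out of the sum. The collagen VI genes summed to 0.0258 to 0.0899 FPKM.

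Col4a3 and Col4a4, which join Col4a5 in the collagen IV of mature glomerular and some tubular basement membranes, were low. Col4a4 (chr1:82448423-82586849, minus strand) was at 0.136 FPKM in Scr_300, 0.225 in Scr_600, 0.185 in Nfat5-KO_300 and 0.836 in Nfat5-KO_600. Col4a3 (chr1:82586921-82722059, plus strand) was at 0.0443, 0.1, 0.0845 and 0.272 FPKM in the same groups and so stayed under the filter. For Col4a4, Nfat5-KO_600 stood above the other 3 groups, and Col4a3 was too low to rank the groups. Nfat5-KO_600 exceeded Scr_600 by 3.71-fold for Col4a4, and the log2 ratio for hypertonicity was 1.25 larger in the knockout than in Scr. With a pseudocount of 1 the log2 ratio of Col4a4 between the genotypes was 0.58 at 600 mosmol/kg.

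The start regions of these genes are shown because Col4a3 and Col4a4, like Col4a5 and Col4a6, lie head to head, with their starts close together. Each window is 300 bases of GRCm38.p6 from RefSeq, from 250 bases before the gene start to 50 bases after it, read 5′ to 3′ on the gene's strand. Capitals mark TGGAAA, the core of the tonicity element to which NFAT5 binds, and GGGCGG, the GC box, each searched on both strands. The starts of Col4a3 and Col4a4 are 71 bases apart, so that the Col4a4 window (chr1:82586800-82587099, minus strand) also holds the annotated Col4a3 start, and it has neither motif. The Col4a5 window (chrX:141475169-141475468, plus strand) has 1 GC box and no tonicity core, and the Col4a6 window (chrX:141474027-141474326, minus strand) has 1 of each. The window of Itgb5 (chr16:33829415-33829714, plus strand), the integrin whose response to hypertonicity differed most between the genotypes, has 3 GC boxes and no tonicity core.
Col4a4: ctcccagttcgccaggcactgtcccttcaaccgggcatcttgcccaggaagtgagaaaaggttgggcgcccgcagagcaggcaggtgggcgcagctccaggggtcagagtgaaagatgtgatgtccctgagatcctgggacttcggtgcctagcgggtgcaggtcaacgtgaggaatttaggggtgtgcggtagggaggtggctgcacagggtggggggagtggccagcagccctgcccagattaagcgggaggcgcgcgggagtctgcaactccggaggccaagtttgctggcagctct
Col4a5: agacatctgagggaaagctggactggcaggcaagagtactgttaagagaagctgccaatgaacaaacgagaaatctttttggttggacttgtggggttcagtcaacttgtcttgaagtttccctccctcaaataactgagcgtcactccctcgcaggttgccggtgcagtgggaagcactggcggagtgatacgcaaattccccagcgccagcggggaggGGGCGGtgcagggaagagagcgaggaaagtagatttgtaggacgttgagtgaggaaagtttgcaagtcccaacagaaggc
Col4a6: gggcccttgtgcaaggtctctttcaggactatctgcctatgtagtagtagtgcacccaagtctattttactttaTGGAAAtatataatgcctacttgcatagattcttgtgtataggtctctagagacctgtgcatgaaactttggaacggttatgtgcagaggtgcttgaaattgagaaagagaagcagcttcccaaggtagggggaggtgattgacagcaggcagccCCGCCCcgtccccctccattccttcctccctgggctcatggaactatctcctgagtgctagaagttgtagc
Itgb5: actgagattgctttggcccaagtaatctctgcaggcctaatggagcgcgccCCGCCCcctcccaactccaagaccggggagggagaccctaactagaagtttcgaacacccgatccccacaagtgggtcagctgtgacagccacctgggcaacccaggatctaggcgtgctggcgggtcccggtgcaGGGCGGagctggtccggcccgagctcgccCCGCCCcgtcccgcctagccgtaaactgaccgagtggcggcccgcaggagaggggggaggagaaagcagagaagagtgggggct
Of the 82 members 59 had a window in the RefSeq table, and 12 of their 65 windows (18.5%) had the TGGAAA core, compared with 21.4% of 32851 windows of all genes. The GC box was in 35 of the 65 windows (53.8%), compared with 35.7% of all windows. Of the 31 members above 0.5 FPKM, 23 had a window, and 5 of their 27 windows (18.5%) had the core. A match of these letters is a description of the window and does not show binding.

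**Figure D3:**
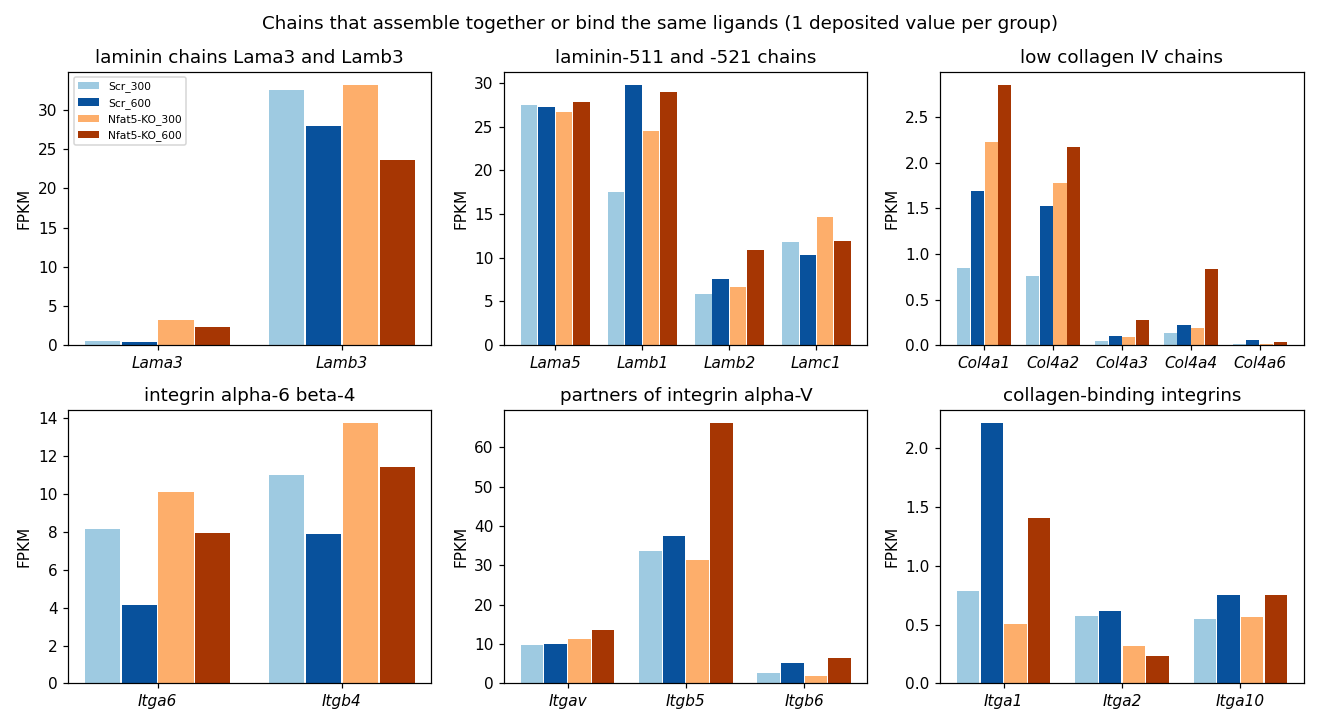
FPKM in the 4 groups (bars, from 0) for chains that assemble together or bind the same ligands, with 1 deposited value per bar and therefore no error bar. Lama3 is at most 3.24 FPKM where Lamb3 is at least 23.7 FPKM, Col4a4 is highest in Nfat5-KO_600 (0.836 FPKM), and Itgb5 is highest in Nfat5-KO_600 (66.2 FPKM).

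The integrin α subunits were led by Itga3, the α subunit of a laminin receptor of tubular epithelium (chr11:95044474-95076801, minus strand). Itga3 was at 84.1 FPKM in Scr_300, 127.2 in Scr_600, 121.7 in Nfat5-KO_300 and 123.1 in Nfat5-KO_600. Scr_300 alone was low, with a log2 ratio of 0.53 for the knockout at 300 mosmol/kg and 0.60 for hypertonicity in Scr cells. The 2 remaining log2 ratios, -0.05 for the knockout at 600 mosmol/kg and 0.02 for hypertonicity in Nfat5-KO cells, both changed sign with the scaling. Without Itga3 the α subunits summed to 35.6, 33.4, 36.3 and 35.1 FPKM, so that the difference of Scr_300 in the α sum (119.7 against 157.9 to 160.5 FPKM in the other groups) came from Itga3.

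Itga6, the α subunit that pairs with Itgb4 in hemidesmosomes and with Itgb1 elsewhere, differed from Itga3 in the direction of hypertonicity in Scr cells. It was at 8.18 FPKM in Scr_300, 4.14 in Scr_600, 10.1 in Nfat5-KO_300 and 7.96 in Nfat5-KO_600. Scr_600 alone was low, with log2 ratios of -0.97 for hypertonicity in Scr, -0.34 in Nfat5-KO cells and 0.93 for the knockout at 600 mosmol/kg. Its partner Itgb4 was at 11.01, 7.90, 13.7 and 11.4 FPKM, again lowest in Scr_600 and highest in Nfat5-KO_300. Itgb4 exceeded Itga6 by 1.35-fold to 1.91-fold in the 4 groups. The ratio of Itga3 to Itga6, both laminin-binding subunits, was 10.3 in Scr_300, 30.7 in Scr_600, 12.05 in Nfat5-KO_300 and 15.5 in Nfat5-KO_600.

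The collagen-binding integrins were low. Itga1 (chr13:114953096-115101964, minus strand) was at 0.787, 2.21, 0.501 and 1.41 FPKM in Scr_300, Scr_600, Nfat5-KO_300 and Nfat5-KO_600. It was 2.81-fold higher at 600 mosmol/kg in Scr and 2.80-fold higher in Nfat5-KO cells, and the knockout was lower at both osmolalities (-0.56 and -0.62). The hypertonicity log2 ratios of the genotypes differed by -0.06. Itga2 (chr13:114833081-114932100, minus strand), which lies beside Itga1, was at 0.575, 0.612, 0.315 and 0.230 FPKM. It was lower in both knockout groups, by 1.83-fold and 2.65-fold, but its log2 ratio for hypertonicity in Scr cells was 0.08. Itga1 shares 3.68% of its exonic bases with the gene Gm49395 on the same strand, and Itga10, at 0.546 to 0.750 FPKM, shares 33.5% with Gm42957, so that reads of these stretches may not be assigned to either gene.

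The other α subunits differed less than 2-fold in all 4 comparisons. Itga7, a laminin receptor subunit best known from muscle, was at 9.47, 7.42, 6.62 and 4.35 FPKM, lower at 600 mosmol/kg in both genotypes (-0.35 and -0.60) and lower in the knockout at both osmolalities (-0.51 and -0.76). The fibronectin receptor subunit Itga5 was at 4.65, 5.75, 5.02 and 4.10 FPKM, higher at 600 mosmol/kg in Scr (0.30) and lower in Nfat5-KO cells (-0.29). Itgav, the shared α partner of several β subunits, was at 9.64, 10.1, 11.3 and 13.5 FPKM and highest in Nfat5-KO_600. Itga2b, the platelet fibrinogen receptor subunit, was at 1.56, 2.00, 1.52 and 2.53 FPKM. Its partner Itgb3 was at 0.199, 0.607, 0.205 and 0.312 FPKM and so 3.30-fold to 8.12-fold below Itga2b.

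Among the β subunits, Itgb1, the partner of most α subunits found here, was the most even at 130.5 FPKM in Scr_300, 141.3 in Scr_600, 148.5 in Nfat5-KO_300 and 140.0 in Nfat5-KO_600. The 4 log2 ratios lay between -0.09 and 0.19. Itgb5, which pairs with Itgav in a vitronectin receptor (chr16:33829665-33949338, plus strand), was at 33.7, 37.4, 31.4 and 66.2 FPKM. Nfat5-KO_600 alone was high, 1.77-fold above Scr_600 and 2.11-fold above Nfat5-KO_300, whereas hypertonicity gave a log2 ratio of 0.15 in Scr cells. The share of Itgb5 among all β subunits was 15.4% to 18.8% in the other groups and 28.7% in Nfat5-KO_600.

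Itgb6, the epithelial partner of Itgav that activates latent TGF-β (chr2:60598292-60722643, minus strand), was at 2.61 FPKM in Scr_300, 5.28 in Scr_600, 1.92 in Nfat5-KO_300 and 6.35 in Nfat5-KO_600. Both values at 600 mosmol/kg lay above both values at 300, by 2.02-fold in Scr and 3.31-fold in Nfat5-KO cells. The knockout log2 ratio was -0.43 at 300 and 0.26 at 600 mosmol/kg. Itgb3, a further partner of Itgav, was 3.05-fold higher at 600 mosmol/kg in Scr and 1.52-fold higher in Nfat5-KO cells, all at or below 0.607 FPKM. Itgb7, a leukocyte homing subunit, was at 0.183, 0.189, 0.325 and 0.501 FPKM and thus higher in both knockout groups. Itgb2, the leukocyte β2 subunit, was at 7.96, 5.82, 6.99 and 5.66 FPKM, lower at 600 mosmol/kg in both genotypes (-0.45 and -0.30). Its α partners Itgal, Itgam, Itgax and Itgad summed to only 0.0222 to 0.0462 FPKM, and the 5 leukocyte markers to 0.0290 to 0.0485 FPKM, with 2 of them at 0 in all groups.

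The effect of hypertonicity in Scr cells and that in Nfat5-KO cells share no library and can be set side by side. Of 26 members counted in both, 22 (84.6%) had the same direction, 13 higher and 9 lower, compared with 74.0% of 12497 genes. The 4 with opposite directions were Itga5, Itgb1, Col18a1 and Lama5, and for Itgb1, Col18a1 and Lama5 the signs depended on the scaling. The response was larger in Nfat5-KO than in Scr cells by 0.93 for Itgb5 and by 0.69 for Itgb6. It was smaller by 0.65 for Col4a2, 0.57 for Col4a1, 0.58 for Itga3 and Itga5 and 0.52 for Lamb1 and Col11a2. For Itga6 the log2 ratio was less negative in Nfat5-KO cells, by 0.63. The median difference of the responses over the 26 members was -0.13, compared with -0.02 over all genes. Whether a response differed between the genotypes could not be tested.

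**Figure D4:**
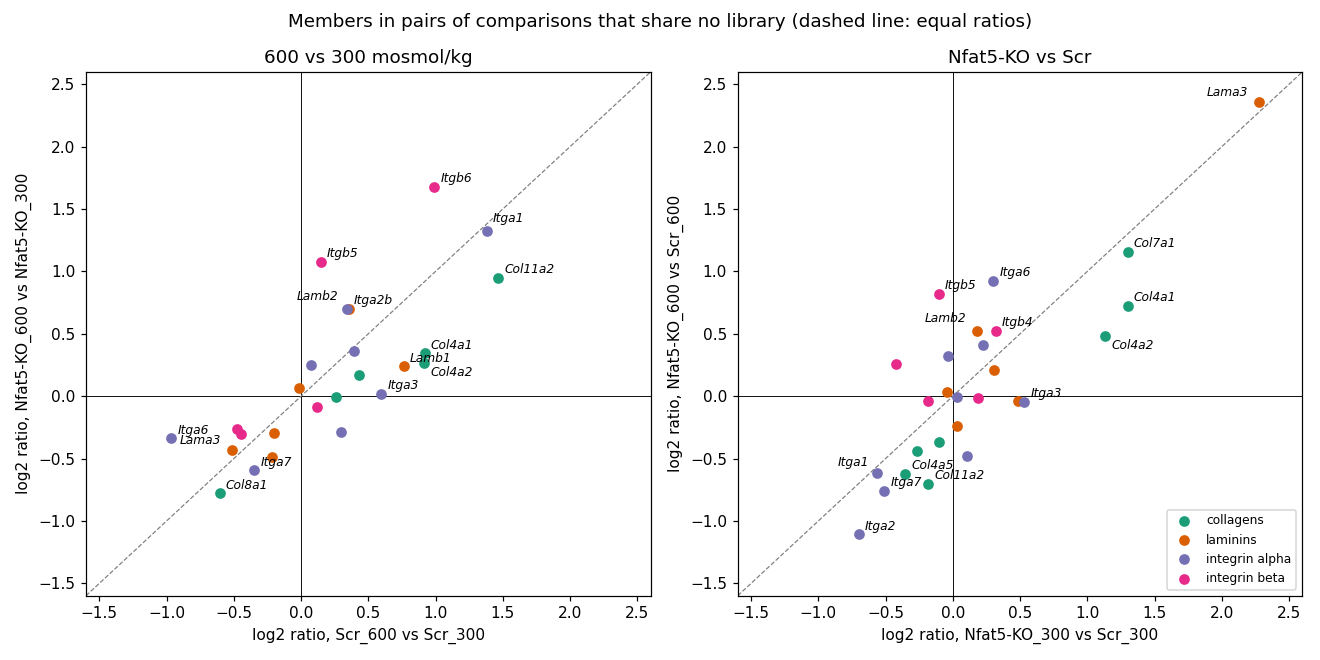
Log2 ratios of FPKM + 0.1 for members in 2 pairs of comparisons that share no library, with one point per member (1 counted member is not drawn) coloured by family and the dashed line marking equal ratios. Left, hypertonicity in Scr (x) and Nfat5-KO cells (y), with 22 of 26 members in the same direction and Itgb5 and Itgb6 above the line. Right, knockout against Scr at 300 (x) and 600 mosmol/kg (y), with 18 of 28 members in the same direction and Lama3 and Col7a1 far from 0 on both axes. Both knockout effects come from clones N1 and N3.

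The knockout effects at 300 and at 600 mosmol/kg also share no library, but both come from clones N1 and N3. A property of these clones would recur in both effects and cannot be told apart from loss of Nfat5. The direction was the same for 18 of 28 members (64.3%), 10 higher and 8 lower, compared with 64.2% of all genes. At 600 mosmol/kg the signs of Lama5, Lamb1, Itga3, Itga10, Itgb1 and Itgb2 changed with the scaling, so that this count depends on it. Lama3 and Col7a1 exceeded 2-fold at both osmolalities. Over the 31 members above 0.5 FPKM, 15 (48.4%) had a highest group at least 2-fold above the lowest after adding 0.1 FPKM, compared with 22.7% of all genes at this level. A gene entered this count through its highest group. Col4a4, Col7a1, Itga2, Itgb3 and Itgb7 thus entered only through the groups where they were high. Both shares depend on this filter, which was the same for all genes, and the levels of the genes were not matched.

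Collagen is modified and folded before secretion, and 16 or 17 of 27 genes for these steps could be counted in each comparison. The highest were P4hb, the β subunit of prolyl 4-hydroxylase (208 to 226 FPKM), the propeptidase enhancer Pcolce and the collagen chaperone Serpinh1 (28.5 to 44.0 FPKM). None was 2-fold different at 300 mosmol/kg between the genotypes. At 600 mosmol/kg Pcolce (30.9, 27.8, 47.9 and 62.3 FPKM in Scr_300, Scr_600, Nfat5-KO_300 and Nfat5-KO_600) and P3h1 (0.829 FPKM at most) were over 2-fold higher and the lysyl hydroxylase Plod2 (18.4, 20.7, 10.9 and 7.68 FPKM) was over 2-fold lower in the knockout. P3h1 passed the filter only through Nfat5-KO_600. P4ha1, a catalytic subunit of prolyl 4-hydroxylase, was at 32.8, 14.2, 25.9 and 14.6 FPKM, lower at 600 mosmol/kg in both genotypes (-1.20 and -0.82). The list medians were -0.03 and 0.04 for the knockout and -0.04 and 0.05 for hypertonicity, of which the second and the third changed sign with the scaling. This gene list and those below were chosen with earlier results of these data known. For all lists, the shares over all genes are those given for the members. In the knockout, 1.73% of all genes were at least 2-fold higher and 2.44% lower at 300 mosmol/kg. At 600 mosmol/kg these shares were 3.76% and 3.68%. For hypertonicity they were 4.81% and 2.86% in Scr and 6.25% and 4.11% in Nfat5-KO cells.

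Of 21 other basement membrane and matrix genes, 12 or 13 could be counted, and the laminin-linking nidogens Nid1 and Nid2 were both below 0.05 FPKM. The list median was 0.35 for the knockout at 300 and 0.18 at 600 mosmol/kg, 0.51 for hypertonicity in Scr and 0.66 in Nfat5-KO cells. Fbln2, a fibulin that binds laminin and fibronectin, was at 12.7, 4.73, 48.1 and 25.7 FPKM, over 2-fold higher in both knockout groups (1.91 and 2.42) and lower at 600 mosmol/kg in both genotypes (-1.41 and -0.90). Frem2 (0.479, 0.702, 1.20 and 2.19 FPKM), of the complex that anchors epithelium to the interstitial matrix, was over 2-fold higher in the knockout at both osmolalities (1.17 and 1.52), and its complex partner Fras1 stayed below 1 FPKM (0.0370, 0.0210, 0.458 and 0.962). Frem2 at 300 mosmol/kg passed the filter only through Nfat5-KO_300, and Fras1 at 600 mosmol/kg only through Nfat5-KO_600. The integrin ligand Thbs1 was at 15.0, 94.995, 30.3 and 45.0 FPKM, so that its knockout log2 ratio was 1.01 at 300 but -1.08 at 600 mosmol/kg. Spp1, osteopontin and a ligand of Itgav pairs, was at 20.6, 55.3, 17.6 and 29.8 FPKM and higher at 600 mosmol/kg in both genotypes. Sparc, at most 0.967 FPKM, was the third gene over 2-fold higher in Scr_600, and passed the filter there only through Scr_600. The gene of the list with the highest mean over the groups was nephronectin (Npnt), the kidney ligand of an Itga8 pair, at 52.4, 77.4, 32.8 and 53.6 FPKM, lower in the knockout at both osmolalities (-0.67 and -0.53).

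All 10 non-integrin matrix receptors and tetraspanins reached 0.5 FPKM in at least 1 group, led by Sdc4 (143 to 200 FPKM), the laminin α5 receptor Bcam (97.4, 171, 134 and 170 FPKM) and Sdc1 (87.3 to 116 FPKM). The collagen receptor Ddr2 was the one gene over 2-fold lower in the knockout, at 1.68, 0.756, 0.0615 and 0.0671 FPKM. In the knockout comparisons Ddr2 passed the filter only through the Scr groups. Cd44, the hyaluronan receptor, was at 6.26, 2.91, 12.1 and 2.11 FPKM, over 2-fold lower at 600 mosmol/kg in both genotypes (-1.08 and -2.47). The list medians were 0.19 and -0.07 for the knockout and -0.02 and 0.11 for hypertonicity, of which the second and the third changed sign with the groups at the same sum.

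Of 29 cytoplasmic partners of integrins, 26 or 27 could be counted. The highest were the actin cross-linkers Actn4 (64.7 to 83.6 FPKM) and Actn1 (46.2, 47.4, 82.9 and 70.9 FPKM) and the GTPase Rap1b (42.9 to 67.1 FPKM). Over 2-fold higher in the knockout were Parvb, Plec and Tns1 at 300 and Parvb, Dst and Tns1 at 600 mosmol/kg. These were 3 of 27 genes each, compared with 1.73% and 3.76% of all genes. None was over 2-fold lower, compared with 2.44% and 3.68% of all genes. Parvb, an adaptor of the integrin-linked kinase complex, was at 0.487, 0.330, 4.19 and 4.45 FPKM, so that both knockout values were above both Scr values (log2 ratios 2.87 and 3.40). Parvb was below 0.5 FPKM in both Scr groups and passed the filter only through the knockout groups. Plec, the plectin that links Itgb4 to keratin filaments, was at 5.91, 5.88, 12.7 and 10.7 FPKM, and Dst, whose epithelial isoform is a further hemidesmosome linker, at 0.881, 0.869, 1.44 and 2.24 FPKM. Tns1, a tensin that ties integrin tails to actin, was at 1.76, 5.92, 3.69 and 13.3 FPKM, and hypertonicity and knockout each gave over 2-fold higher values (1.70 and 1.83, and 1.03 and 1.16). Tns4 was at 1.48, 0.594, 0.702 and 1.20 FPKM, with opposite directions of hypertonicity in the genotypes (-1.18 and 0.70). The list medians were 0.14 and 0.02 for the knockout and 0.02 and -0.10 for hypertonicity, and the second and the fourth changed sign with the scaling.

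Of 18 matrix proteases and inhibitors, 8 or 9 could be counted. The inhibitor Timp2 (62.4 to 84.9 FPKM), the protease Adamts1 and Adam9 (31.8 to 37.4 FPKM) were highest. Adamts1 was at 56.0, 73.8, 55.5 and 19.5 FPKM, so that only Nfat5-KO_600 was low, with log2 ratios of -1.92 against Scr_600 and -1.51 against Nfat5-KO_300. Timp1 was at 16.1, 4.68, 30.9 and 4.43 FPKM, over 2-fold lower at 600 mosmol/kg in both genotypes (-1.76 and -2.77). Mmp15, at most 0.686 FPKM, was over 2-fold lower in the knockout at both osmolalities (-1.46 and -1.05), and passed the filter only through the Scr groups. The list medians were 0.05 and 0.13 for the knockout and -0.0075 and 0.03 for hypertonicity, and the last pair changed sign with the scaling.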

How the data were processed

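RNA-seq of 12 mpkCCD libraries was analysed. Per the labels and the study's methods, the authors aligned paired-end reads to GRCm38 (mm10) with HISAT2, took gene counts from HTSeq and normalised them by length and depth. The authors deposited FPKM, 1 value for a gene in each of 4 groups, and the way in which libraries were pooled, the annotation release and the strand setting are not given in the sources used here. Depth is therefore unknown, and no test, SD or interval was computed. The members were chosen by gene symbol alone, and the gene lists with earlier results of these data known.

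Of 54839 rows, 2436 held no value, 311 were exact duplicates (3 of the 4 Itgam rows among them) and 37 symbols with differing rows were left out, leaving 52015 genes. Log2 ratios of FPKM + 0.1 were taken for 4 comparisons where the higher of the 2 groups reached 0.5 FPKM, and a difference of at least 2-fold was counted. Positions came from GENCODE M21, which matched all 82 members. Promoter windows came from RefSeq for GRCm38.p6. Named were members with at least 1 FPKM and a 2-fold difference in any comparison, the 5 highest of each family, chains of laminins and of collagen IV, members near the threshold, and in each list the 3 highest genes and those with at least 1 FPKM and a 2-fold difference. Itga2, Itga2b, Itga10, Itgb3, Itgb7, Col7a1, P3h1, Fras1, Sparc, Nid1, Nid2, Mmp15 and the genes under Other observations fall outside this rule and were added after their values were seen. The values of 1 member are not reported here, although it is included in the counts, sums and medians. The steps were tested on simulated data. Alternatives were a pseudocount of 1 or 0.01, a mean of at least 1 FPKM or no filter at all, median-of-ratios factors and the same FPKM sum in every group. Scripts ran in Python 3.11.15 with pandas 2.3.3, numpy 2.4.6 and matplotlib 3.10.9.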

Additional observations from a re-analysis of the deposited data

How the results depend on the processing

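No paired analysis was possible because the deposited values hold 1 value per group, and for the same reason no library could be left out. The 6 alternatives tried could not reverse a difference of at least 2-fold. A pseudocount or filter keeps the sign of a ratio, and the same sum moved the all-gene medians by at most 0.24. Several values near 0 changed sign with the scaling, among them those named in the report. The member median for Nfat5-KO_600 against Scr_600 was also such a value (-0.04 with median-of-ratios factors). With median-of-ratios factors and with a pseudocount of 0.01, all 12 counts and medians of the members stayed near their values. With a pseudocount of 1, the members at least 2-fold higher numbered 1 in Nfat5-KO_300 against Scr_300, 1 in Nfat5-KO_600 against Scr_600, 0 in Scr_600 against Scr_300 and 2 in Nfat5-KO_600 against Nfat5-KO_300, and 0 were lower in Nfat5-KO_600 against Scr_600; this setting shrinks ratios of low genes by construction. With a mean of at least 1 FPKM, 1 member was higher and 0 lower in Nfat5-KO_600 against Scr_600, since fewer genes enter. Without a filter, the member median for Scr_600 against Scr_300 was 0.0699, and 1 member was lower in Nfat5-KO_600 against Nfat5-KO_300. With the same sum in every group, the member medians were 0.16 for Nfat5-KO_600 against Scr_600, 0.33 for Scr_600 against Scr_300 and 0.31 for Nfat5-KO_600 against Nfat5-KO_300, and 6 members were higher in Scr_600 than in Scr_300, beside 756 of 12893 genes higher and 288 lower.

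Over all genes, those at least 2-fold higher and lower numbered 220 and 310, 491 and 481, 622 and 370, and 812 and 534 in the order of the report. They numbered 48 and 87, 135 and 203, 251 and 124, and 259 and 230 with a pseudocount of 1; 581 and 647, 1086 and 798, 1098 and 737, and 1422 and 789 without a filter; 117 and 163, 246 and 277, 345 and 209, and 453 and 392 with a mean of at least 1 FPKM; and 1318 and 274 in the last comparison with the same sum. The share of higher genes among those past 2-fold moved from 60.3% to 82.8% in Nfat5-KO_600 against Nfat5-KO_300 and from 50.5% to 61.6% in Nfat5-KO_600 against Scr_600 with the same sum, and to 39.9% in the latter with a pseudocount of 1. Depth limits most the members under 1 FPKM, among them Col4a4, Col7a1 and Itga2.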

Other observations

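The 51 members below 0.5 FPKM in all groups entered no comparison. Of these, 9 reached 0.1 FPKM, Col4a3 among them, and the others are given as values in the order Scr_300, Scr_600, Nfat5-KO_300 and Nfat5-KO_600. The fibrillar collagen Col1a1 was at 0.033, 0.077, 0.072 and 0.221 FPKM and Col5a1 at 0.005, 0.003, 0.041 and 0.162 FPKM. The laminin chain Lamc3 was at 0.197, 0.078, 0.487 and 0.095 FPKM. Itgb8, a partner of Itgav, was at 0.097, 0.213, 0.096 and 0.162 FPKM, and Itgb2l at 0.077, 0.268, 0.073 and 0.170 FPKM. Col8a2, Col9a3 and Itgae lay between 0.056 and 0.268 FPKM in all groups. All of these levels are too low, at an unknown depth, to rank the groups.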
